A study of Pan troglodytes with 217 samples.

Results

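The 10 genes described here encode hormones, steroid enzymes and fusion factors of the placenta: CGA, CYP19A1, CYP11A1, HSD3B1, HSD17B1, GCM1, SDC1, INSL4, ERVFRD-1 and MUC15. They were chosen by name, with earlier results of these data known, and looked up by symbol among the chimpanzee gene identifiers of the count matrix. All 10 were found, of 33729 identifiers in all, and each was detected in no fewer than 20 of the cells used. They were measured in single cells of chimpanzee blastoids, which are blastocyst-like structures made from naive pluripotent stem cells. The parent cells had been kept in PXGL-A6E, a medium that holds the naive state with inhibitors of MEK, tankyrase, protein kinase C and EZH2 plus LIF, activin and IL-6. Blastoids were formed in PALY, then ALY, then plain N2B27 medium, and were taken on day 4. All cells share this 1 condition. Most mural trophectoderm, the part of the outer layer away from the inner cells, had been cut off, so the cells are not a fair sample of the outer layer. Neither blastoid nor cell line is given for a cell, so the cells form 1 sample, and no test between samples was possible.

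Trophectoderm is the outer layer of the blastocyst and the founder of the placenta. Its progeny, the trophoblast, makes its hormones mostly in the syncytiotrophoblast, a tissue of fused cells that faces the maternal blood. The transcription factor GCM1 is known to switch on fusion genes, syncytins such as the product of ERVFRD-1 merge the membranes, and the fused tissue secretes chorionic gonadotropin and makes progesterone and estrogens.

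Cells with reads on at least 8000 genes were kept, and 24 cells were left out. The cells kept had a median of 3960857 reads, with a range of 1679888 to 25630392. Reads carry no molecular identifiers, so copies of 1 cDNA are counted more than once. Levels are reads of a gene per 1000000 reads on genes (CPM), pooled over the cells of a class, and are not divided by gene length, so levels are compared between cells and not between genes. A gene is called on in a cell at 10 CPM or more. Shares have exact (Clopper-Pearson) 95% intervals and pooled CPM exact Poisson 95% intervals, both of which cover counting error only. Where a count is 0, the limit given beside it is not this interval but the share that 3 cells would make, which is somewhat lower.

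Clustering without the 10 genes, CCR7 and their pathway lists gave 4 clusters. One of 50 cells was epiblast-like and one of 32 cells was hypoblast-like by their markers, and the other two, of 60 and 51 cells, were trophectoderm-like (TE-like). Genes that move with the 10 still entered the clustering. The TE-like cells were divided by CCR7, a chemokine receptor gene that marks late polar trophectoderm: 51 cells below 10 CPM are called early and 60 cells at or above it late. The nearest cells on each side of this limit had CCR7 at 5.37 and 11.4 CPM, and they had 2 and 1 of the 10 genes on. Among early cells, 44 had no CCR7 read. The words early and late stand for this split at 1 time of collection and not for an observed course in time. Of the late cells, 48 lay in the cluster of 51 and 12 in the cluster of 60, which held 48 of the early cells. Every TE-like cell had at least 6 of 14 trophectoderm markers on, with a median of 10 in both classes. The summed level of these markers ran from 2000 to 7081 CPM in late and from 969 to 6078 CPM in early cells. At least 3 epiblast or 3 hypoblast markers were on in 17 late and 9 early cells, and no doublet caller was run. The median total was 4425386 reads in late, 3682620 in early, 3951119 in epiblast-like and 3978822.5 in hypoblast-like cells.

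The genes came on in a graded way among TE-like cells. HSD17B1 was on in all of them, CYP11A1 in most, GCM1 and HSD3B1 in most late and few early cells, and CYP19A1, CGA, MUC15 and SDC1 in a part of the late cells. ERVFRD-1 was on in 7 cells and INSL4 in 4. Pooled over cells, 9 of the 10 genes were at least 2-fold higher in late than in early TE-like cells, against a background of 12.4% of 15804 genes, and 0 were at least 2-fold lower, against 9.07%. The exception was HSD17B1. Since the 10 genes were chosen with earlier results of these data known, the backgrounds here and below give scale and are no test. The 9 include INSL4, which rests on single cells and had a ratio of 1.95 by the mean over cells. The median log2 ratio was 3.81 over the 10 genes and 0.03 over all genes, on the log2(CPM + 1) scale.

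**Figure D1:**
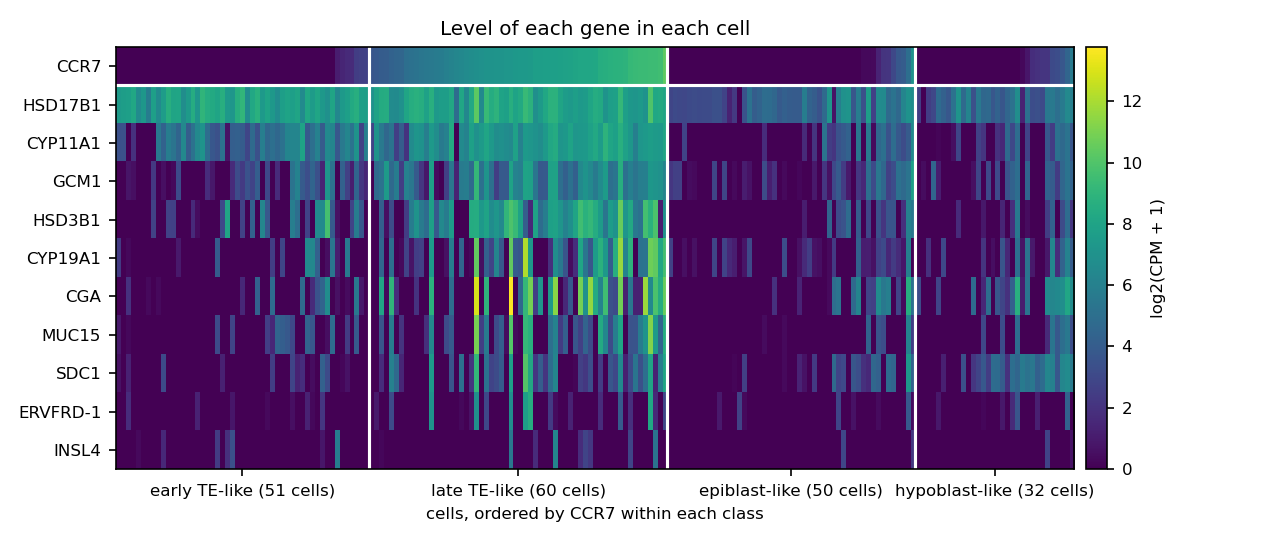
Each column is 1 cell and each row a gene, with color for log2(CPM + 1). Cells are ordered by CCR7 within each of the 4 classes, and cells without CCR7 reads by the number of genes on, so that part of their gradient comes from the sorting. HSD17B1 fills both TE-like classes, and the brightest CGA, CYP19A1 and MUC15 cells lie among the late cells.

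The enzymes that turn cholesterol into steroid hormones were described in the order of their reactions. CYP11A1 (ENSPTRG00000046983) encodes the mitochondrial side-chain cleavage enzyme, which makes pregnenolone. In late cells its level ran from 0 to 476 CPM with a median of 151.4, and in early cells from 0 to 254.6 CPM with a median of 26.3. It was on in 56 of 60 late cells (93.3%, 83.8% to 98.2%) and in 38 of 51 early cells (74.5%, 60.4% to 85.7%). The classes overlap, and most early cells already held this gene, at a lower level. The pooled level was 164.5 CPM (163.03 to 165.99) in late and 36.3 CPM (35.5 to 37.1) in early cells, a ratio of 4.53 (4.43 to 4.64).

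HSD3B1 (ENSPTRG00000024031) encodes the enzyme that converts pregnenolone to progesterone. Its late cells ranged from 0 to 1543 CPM with a median of 124.6, and its early cells from 0 to 839 CPM with a median of 0. It was on in 48 late cells (80%, 67.7% to 89.2%) and in 12 early cells (23.5%, 12.8% to 37.5%). One early cell held 41.2% of the early reads. The ratio of pooled levels, 250.3 CPM (248.5 to 252.1) to 22.3 CPM (21.7 to 22.95), was 11.2 with this cell and 18.9 without it.

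CYP19A1 (ENSPTRG00000007074) encodes aromatase, which makes estrogens from androgens. Late cells reached 4509 CPM, with a median of 14.01, while early cells ended at 96.7 CPM with a median of 0. The gene was on in 34 late cells (56.7%, 43.2% to 69.4%) and in 6 early cells (11.8%, 4.44% to 23.9%). A few cells carried most of the reads in both classes: 5 late cells held 75.9% of the late reads, and the early cell with the largest library, of 25630392 reads, held 67.8% of the early reads. The pooled levels were 371 CPM (369 to 373) and 16.1 CPM (15.5 to 16.6), a ratio of 23.1, or 63.7 without that early cell.

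HSD17B1 (ENSPTRG00000052042) encodes the enzyme that reduces estrone to estradiol. It ranged from 28.7 to 1258 CPM in late cells, with a median of 258.8, and from 54.3 to 534 CPM in early cells, with a median of 214.98. It was on in 60 of 60 late cells (94.04% to 100%) and in 51 of 51 early cells (93.02% to 100%). The early range lies within the late one, which reached higher levels. The pooled ratio, 309 CPM (307 to 311) to 253.2 CPM (251.2 to 255.3), was 1.22.

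The whole set of CYP11A1, HSD3B1, CYP19A1 and HSD17B1 was on together in 30 late cells (50%, 36.8% to 63.2%). The set was on in 2 early (3.92%), 2 epiblast-like (4%) and 2 hypoblast-like cells (6.25%). CYP11A1 was on in all 48 late cells with HSD3B1 on and in all 34 with CYP19A1 on, whereas 8 late cells had CYP11A1 without HSD3B1. Of the 34 late cells with aromatase on, 4 lacked HSD3B1 at this level.

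Among the hormone genes, CGA (ENSPTRG00000018398) encodes the alpha subunit that chorionic gonadotropin shares with the pituitary glycoprotein hormones. Late cells ran from 0 to 13971 CPM with a median of 3.93, and early cells from 0 to 108.5 CPM with a median of 0. It was on in 27 late cells (45%, 32.1% to 58.4%), with a median of 490 CPM among these 27, and 9 cells exceeded 1000 CPM. In early cells it was on in 7 (13.7%, 5.70% to 26.3%), with a median of 26.3 CPM among them. The late cells thus fell into 33 below 10 CPM and 27 above it, some of them far above. The pooled ratio, 759 CPM (756 to 762) to 3.84 CPM (3.59 to 4.10), was 197.5. A single late cell held 28.8% of the late reads, and without it the ratio was 142.9.

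INSL4 (ENSPTRG00000020750), a placental gene of the insulin and relaxin family, was close to silent. It had reads in 9 late cells and was on in 3 of them (5.00%, 1.04% to 13.9%), at 72.1, 43.4 and 36.4 CPM. The only early cell with INSL4 on had 56.2 CPM (1.96%, 0.0496% to 10.4%). Single cells decide the ratio of the pooled levels, 3.37 CPM to 0.730 CPM. It was 4.63, 2.49 without the highest late cell, 11.5 without the highest early cell and 1.95 by the mean over cells, so no difference is read from it.

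GCM1 (ENSPTRG00000018288), the transcription factor at the head of the fusion program, was on in 51 late cells (85%, 73.4% to 92.9%) and in 10 early cells (19.6%, 9.82% to 33.1%). It ranged from 0 to 568 CPM with a median of 42.8 in late cells, and from 0 to 146.6 CPM with a median of 1.14 in early cells. A read of GCM1 was found in 31 of 51 early cells, and 10 of these reached 10 CPM. Its pooled level was 86.7 CPM (85.6 to 87.7) in late and 8.46 CPM (8.09 to 8.85) in early cells, a ratio of 10.2.

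ERVFRD-1 (ENSPTRG00000034194) encodes syncytin-2, an envelope protein of retroviral origin that fuses trophoblast membranes. It was on in 7 late cells (11.7%, 4.82% to 22.6%), at 382, 288, 214.6, 133.5, 114.3, 107.4 and 14.6 CPM, and the next late cell was at 7.73 CPM. No early cell had it on, 0 of 51, which allows up to 5.88% by the limit of 3 cells, and the highest of them was at 3.52 CPM. The pooled levels were 22.7 CPM (22.2 to 23.3) and 0.299 CPM (0.232 to 0.379). Single cells move their ratio, which was 75.97, 49.1 without the late cell and 152.8 without the early cell that held the most ERVFRD-1 reads.

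SDC1 (ENSPTRG00000044887) encodes syndecan-1, a cell surface proteoglycan that is abundant on the syncytiotrophoblast and on other epithelia. Late cells ranged from 0 to 1081 CPM with a median of 3.596, and 21 had it on (35%, 23.1% to 48.4%). Early cells ended at 18.4 CPM, and that cell was the only 1 of 51 with SDC1 on (1.96%, 0.0496% to 10.4%). The pooled ratio, 69.8 CPM (68.8 to 70.7) to 0.743 CPM (0.635 to 0.864), was 93.9, or 62.1 without the highest late cell. When cells with 7000 detected genes or more were admitted, 1 added early cell at 8585 CPM held 99.5% of the early SDC1 reads, and the ratio was 1.25 with this cell and 243.1 without it.

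MUC15 (ENSPTRG00000003450) encodes a membrane mucin found in the placenta. It ranged from 0 to 2387 CPM in late cells, with a median of 7.87, and from 0 to 28.8 CPM in early cells, with a median of 0. It was on in 27 late (45%, 32.1% to 58.4%) and 7 early cells (13.7%, 5.70% to 26.3%). The pooled levels were 143.9 CPM (142.5 to 145.3) and 4.72 CPM (4.44 to 5.01), a ratio of 30.5. One early cell held 47.1% of the early reads, and without it the ratio was 51.1. In the RefSeq annotation MUC15 overlaps ANO3 and ERVFRD-1 overlaps SMIM13, both protein-coding. CYP19A1 and SDC1 overlap long noncoding RNAs, CYP11A1 a long noncoding RNA and a pseudogene, and HSD3B1 was not matched by symbol there. Whether the counting used strand is not given in the sources used here, so reads of these partners may have been shared or lost.

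**Figure D2:**
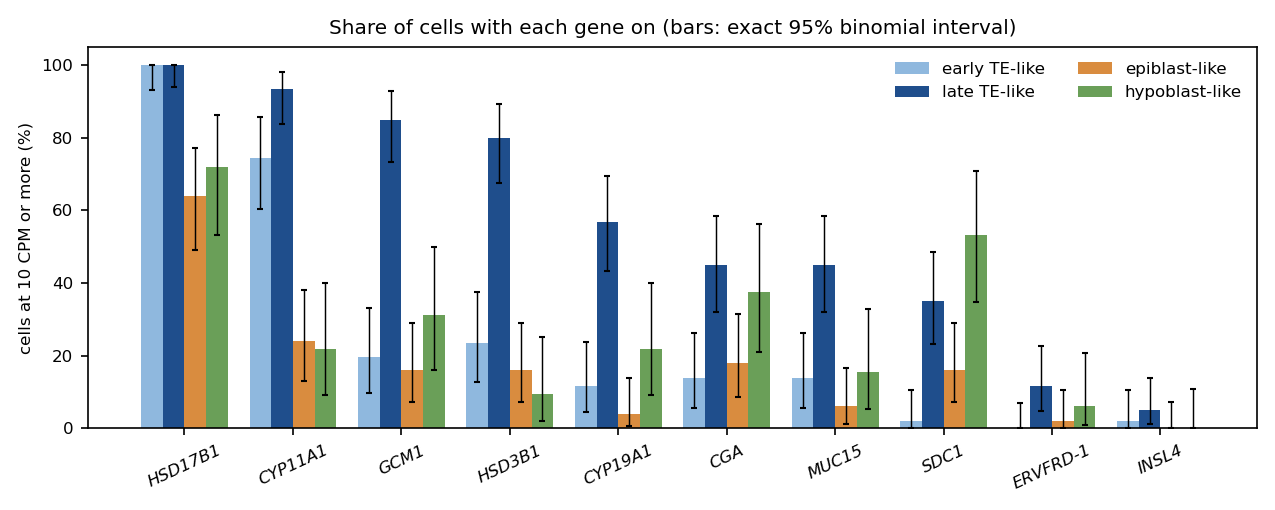
Bars give the percentage of cells at 10 CPM or more for each gene in 51 early TE-like, 60 late TE-like, 50 epiblast-like and 32 hypoblast-like cells, and lines the exact 95% binomial interval. HSD17B1 stands at 100% in both TE-like classes, and SDC1 is the gene with its highest bar, 53.1%, in hypoblast-like cells.

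By the share of late cells with each gene on, the order was HSD17B1, CYP11A1, GCM1, HSD3B1, CYP19A1, CGA with MUC15, SDC1, ERVFRD-1 and INSL4. Of neighbours in this order, the intervals overlapped in each case except between SDC1 (23.1% to 48.4%) and ERVFRD-1 (4.82% to 22.6%). The genes were measured in the same cells, which separate intervals ignore, so their overlap does not decide the single steps. For example, 18 late cells had HSD3B1 on without CYP19A1 and 4 the reverse, whereas 9 had GCM1 on without HSD3B1 and 6 the reverse. The steps were not tested. In early cells the intervals of HSD17B1 (93.02% to 100%) and CYP11A1 (60.4% to 85.7%) stood apart from each other and from the other 8 genes, whose highest share was the 23.5% of HSD3B1. The order depends on the limit of 10 CPM and, since CPM is not divided by length, on transcript length too.

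The number of the 10 genes on in a cell measured how far they were expressed together. Late cells had a median of 6 genes on, from 1 to 10, and early cells a median of 2, from 1 to 6. At least 3 genes were on in 56 of 60 late cells (93.3%, 83.8% to 98.2%) and in 21 of 51 early cells (41.2%, 27.6% to 55.8%). At least 7 were on in 22 late cells (36.7%, 24.6% to 50.1%) and in 0 early cells, which allows up to 5.88%. The early share moves with the limit for on: it was 80.4% at 1 CPM, 11.8% at 50 CPM and 86.3% at 1 read, beside late shares of 96.7%, 80% and 96.7%. With cells thinned to 2532312 reads and 20 shallower cells left out, 52 of 55 late cells (94.5%) and 18 of 45 early cells (40%) had at least 3 genes on. Detected genes still had medians of 11107 in late and 10508 in early cells after thinning.

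**Figure D3:**
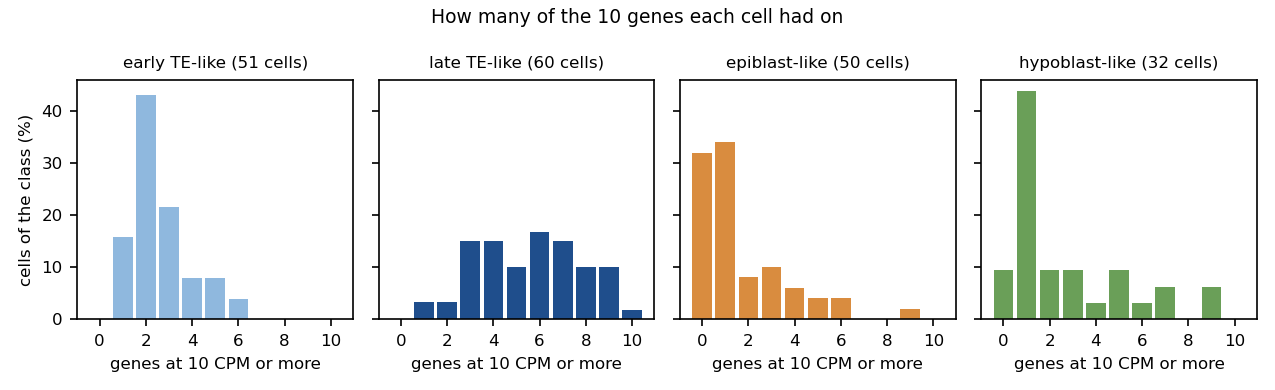
Each panel is a class, the x axis counts how many of the 10 genes were at 10 CPM or more in a cell, and the y axis gives the percentage of the cells of the class. Early TE-like cells peak at 2 genes and end at 6, whereas late TE-like cells spread from 1 to 10, and a few epiblast-like and hypoblast-like cells lie at 7 to 9.

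Within late cells, the genes on in fewer cells were mostly found together with those on in more cells. All 27 cells with CGA on also had GCM1 and CYP11A1 on, and 24 of the 27 had CYP19A1 on. GCM1 was on in 51 and CYP11A1 in 56 of the 60 late cells, so part of this overlap follows from the shares alone. If genes were on independently, 22.95 of the 27 would have had GCM1, 25.2 CYP11A1 and 15.3 CYP19A1. The overlap with CYP11A1 lay nearest to its value from the shares, and the 9 late cells without GCM1 on all lacked CGA too. GCM1 was on in 33 of the 34 cells with CYP19A1, in all 27 with MUC15 and in all 21 with SDC1. The converse was less complete, since 24 of the 51 cells with GCM1 on lacked CGA and 30 lacked SDC1. CGA and MUC15, which were on in 27 cells each, shared 21, beside 12.15 from their shares alone. HSD3B1 and SDC1 shared 16, beside 16.8. CGA, CYP19A1 and MUC15 were on together in 20 late cells (33.3%, 21.7% to 46.7%) and in 0 early cells.

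The 7 cells with ERVFRD-1 on had most of the other genes on. Each had CGA, CYP19A1, CYP11A1, HSD17B1, GCM1, SDC1 and MUC15 on, and 6 of them HSD3B1, so that 7 to 9 of the 9 other genes were on. At least 8 of the 9 were on in 6 of these 7 cells, and in 6 of the 53 late cells without ERVFRD-1 on. GCM1 ranged from 155.5 to 568 CPM in these cells with a median of 243.6, and from 0 to 241.8 CPM with a median of 38.1 in the 53 other late cells. SDC1 ranged from 90.4 to 1081 CPM with a median of 274 in them, against 0 to 263.4 CPM with a median of 2.45. CGA ran from 89.8 to 13971 CPM, with a median of 1761, and in the other 53 cells from 0 to 3359 CPM, with a median of 1.40. CCR7 ran from 47.1 to 702 CPM in them with a median of 169.8, beside a median of 161.3 CPM in the other late cells. Their median total was 4960917 reads and 11465 detected genes, beside 4270221 reads and 11528 genes.

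**Figure D4:**
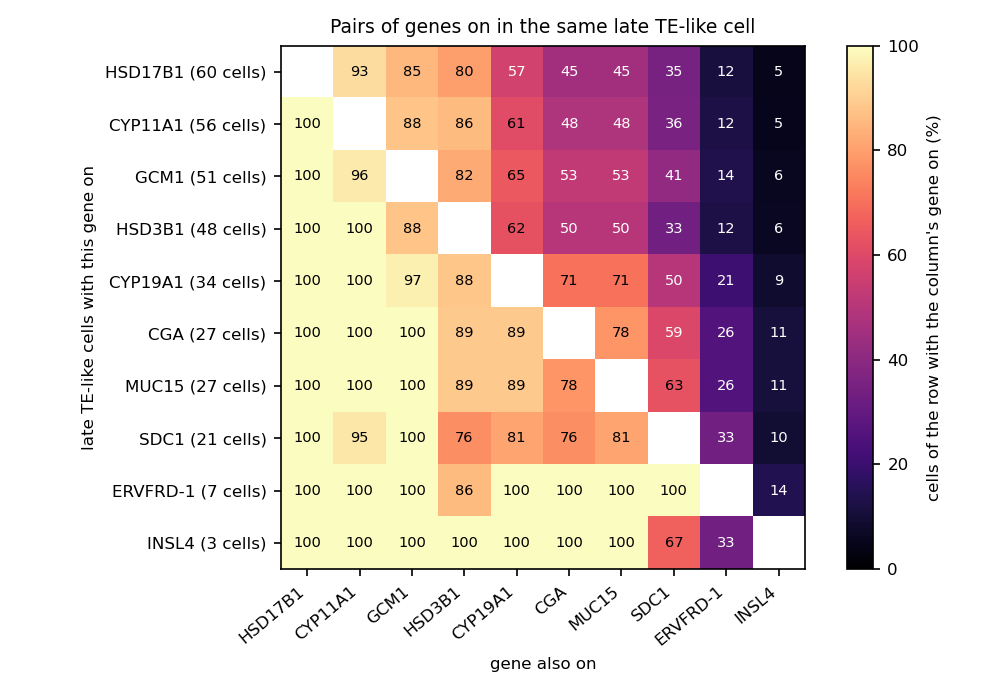
Rows are the late TE-like cells with the named gene on, columns a second gene, and the number is the percentage of the row's cells with that gene on as well. The left of the matrix is at or near 100%, the upper right is low, and the row of ERVFRD-1 holds 100% for 7 of the 9 other genes.

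Over the 60 late cells, Spearman's rho of the levels was above 0 for 44 of the 45 pairs, with a median of 0.44. It was highest for CYP19A1 with MUC15 (0.75) and for CGA with GCM1 (0.74), and lowest for HSD17B1 with INSL4 (-0.01). The number of genes on had a rho of 0.55 with CCR7, 0.23 with total reads and 0.17 with detected genes. These are descriptions over cells of 1 sample that share the day, the protocol and their sequencing, and each gene enters several pairs. Pairs of other genes were not counted in the same cells, so the 44 of 45 has no background. Nothing particular to these genes is read from that count or from the median rho.

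Ordered by CCR7, the 60 late cells were divided into 3 sets of 20. The median number of genes on was 3 in the set with the lowest CCR7 (11.4 to 99.01 CPM), 6 in the next (105.2 to 233.9 CPM) and 6.5 in the highest (242.3 to 1310 CPM). CGA was on in 4, 9 and 14 cells, CYP19A1 in 5, 12 and 17, MUC15 in 4, 9 and 14, HSD3B1 in 10, 19 and 19, and GCM1 in 12, 19 and 20. SDC1, on in 5, 9 and 7 cells, and ERVFRD-1, on in 1, 4 and 2, had their highest count in the middle set. Pooled levels did not follow all of these counts. CGA was at 66.6, 1393 and 804 CPM, MUC15 at 8.59, 240.4 and 176.7 CPM and GCM1 at 38.9, 120.6 and 98.3 CPM, all highest in the middle set, whereas CYP19A1 was at 15.4, 491 and 574 CPM and HSD3B1 at 49.97, 258.8 and 416 CPM. Single cells decide which of the upper sets is higher: without the middle-set cell with the most reads of the gene, chosen after seeing the data, the middle level was 744 CPM for CGA, 139.8 CPM for MUC15 and 95.2 CPM for GCM1, each below that of the highest set. Leaving out the top cell of both sets put the middle set above the highest again, against 724, 106.96 and 80.9 CPM, so no order of the middle and the highest set is read from the levels of these 3 genes. The 7 early cells with a CCR7 read had a median of 3 genes on, and the 44 without one a median of 2. Detected genes had medians of 11248.5, 11549 and 11511 in the 3 late sets. Late cells of the cluster of 51 had a median of 6 genes on, and all 48 had at least 3, whereas the 12 late cells in the cluster of 60 had a median of 3.

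Outside the trophectoderm, the 10 genes were lower but not silent. All 10 were at least 2-fold higher in TE-like than in epiblast-like and hypoblast-like cells together, against a background of 11.5% of genes, and 0 were lower, against 21%. HSD17B1 was on in 32 of 50 epiblast-like (64%, 49.2% to 77.1%) and 23 of 32 hypoblast-like cells (71.9%, 53.3% to 86.3%), with medians of 15.7 and 24.4 CPM. CYP11A1 was on in 12 epiblast-like (24%) and 7 hypoblast-like cells (21.9%), and HSD3B1 in 8 (16%) and 3 (9.38%). GCM1 was on in 8 (16%) and 10 (31.3%), CYP19A1 in 2 (4%) and 7 (21.9%), and MUC15 in 3 (6%) and 5 (15.6%). ERVFRD-1 was on in 1 and 2 cells. INSL4 was on in 0 of 82, which allows up to 3.66%.

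CGA and SDC1 were higher in hypoblast-like than in early TE-like cells. CGA was on in 12 of 32 hypoblast-like cells (37.5%, 21.1% to 56.3%), from 0 to 414 CPM, and was pooled at 33.5 CPM (32.5 to 34.5), 8.71 times the early level. SDC1 was on in 17 of 32 (53.1%, 34.7% to 70.9%), from 0 to 97.3 CPM with a median of 12.6, and was pooled at 20.0 CPM (19.3 to 20.8), 26.9 times the early level. With ERVFRD-1, at 0.965 CPM and 3.23 times, 3 of the 10 genes were at least 2-fold higher in hypoblast-like than in early cells, against a background of 17.1%. ERVFRD-1 fell below 2-fold, to 1.55, without 1 hypoblast-like cell. CYP11A1, HSD3B1, HSD17B1, INSL4 and CYP19A1 were at least 2-fold lower, 5 genes against a background of 14.7%. For CYP19A1 this direction turned without 1 early cell, from a ratio of 0.455 to 1.26. The highest share of any class for SDC1 was therefore in the hypoblast-like cells, although its interval overlaps that of the late cells.

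Inner cells with several of these genes on also had more trophectoderm markers on. At least 3 of the 10 genes were on in 13 of 50 epiblast-like cells (26%, 14.6% to 40.3%) and in 12 of 32 hypoblast-like cells (37.5%, 21.1% to 56.3%). These 25 cells had a median of 8 of 14 trophectoderm markers on and a summed marker level of 90.1 to 2644 CPM, with a median of 696. The 57 other inner cells had a median of 3 markers on and 0.367 to 1925 CPM, with a median of 187.1. CCR7 was at 10 CPM or more in 6 of the 25 and in 1 of the 57. Among the 57, CGA was on in 3, CYP11A1, HSD3B1 and GCM1 in 1, 1 and 2, and CYP19A1, MUC15 and ERVFRD-1 in 0, while SDC1 was on in 8 and HSD17B1 in 30. Whether RNA or cells of the trophectoderm contributed to the inner values was not tested. The hypoblast-like cells with SDC1 on had a median of 5 trophectoderm markers on, and those without it 4, and GATA3, a defining marker, had medians of 45.8 and 11.7 CPM. In hypoblast-like cells the median number of trophectoderm markers on was 6 with CGA on and 4 without it, and 6 and 3 with and without HSD17B1 on. Their summed trophectoderm level had a median of 447 CPM with CGA on and 485 CPM without it, 464 and 507 CPM for HSD17B1, and 566 and 448 CPM for SDC1. In epiblast-like cells the same medians were 622 and 182.6 CPM for CGA, 383 and 139.2 CPM for HSD17B1, and 507 and 202.6 CPM for SDC1, so there the summed level was higher with each of these genes on. As a share of the late level, the pooled inner level was 15.6% for SDC1, 11.1% for HSD17B1, 8.73% for GCM1, 5.09% for INSL4, 4.15% for CYP11A1, 2.74% for ERVFRD-1, 2.68% for CGA, 1.95% for MUC15, 1.52% for HSD3B1 and 1.17% for CYP19A1.

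A total of 5 inner cells had 7 or more of the 10 genes on, 1 epiblast-like and 4 hypoblast-like. They had 5 to 11 trophectoderm markers on, and also 3 to 8 epiblast and 3 to 10 hypoblast markers. Their CGA lay at 414, 380, 286, 111.01 and 79.1 CPM, and 3 of them had ERVFRD-1 on.

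The wider pathways were followed with lists of 36 hormone and secreted protein genes, 21 steroid genes and 26 fusion genes and their regulators. The lists too were chosen with earlier results of these data known. Of the hormone list 24 genes were found and 11 had reads in enough cells to compare. In late cells 6 were at least 2-fold higher and 2 lower, beside the 12.4% and 9.07% of all genes, with a median log2 ratio of 1.45. PGF, placental growth factor, was at 754 CPM in late and 30.5 CPM in early cells and was on in 52 and 30 of them. LGALS16 and LGALS13, galectins of the placenta, were at 126.2 and 29.1 CPM in late cells and at 0.580 and 0.681 CPM in early cells. ADM, the vasodilator adrenomedullin, was at 64.9 and 1.83 CPM, and ADAM12, a secreted protease, at 1.92 and 0.0703 CPM. FSTL3 and PAPPA were the lower genes, both below 1 CPM in either class. GDF15 did not pass 2-fold, pooled at 153.3 CPM in late and 94.4 CPM in early cells. Per cell it went the other way, on in 41 late and 48 early cells with medians of 16.4 and 60.3 CPM. No CGB gene, the beta subunit of chorionic gonadotropin, was matched. LHB, which is nearly identical to them in sequence, was at 4.02 CPM in late and 0.123 CPM in early cells and was on in 6 late cells, all of which had CGA on, and its reads may belong to any of these copies. Placental lactogen (CSH1), PSG1 and CRH had 0 reads in TE-like cells.

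Of the steroid list 13 genes were compared. In late cells 3 were at least 2-fold higher and 2 lower, beside 12.4% and 9.07% of all genes, with a median log2 ratio of 0.00. FDX1, the ferredoxin that passes electrons to CYP11A1, was at 245.04 CPM in late and 117.6 CPM in early cells, a ratio of 2.08. Its reductase FDXR was at 72.3 and 68.9 CPM. CYP11A1, FDX1 and FDXR were on together in 55 late (91.7%) and 38 early cells (74.5%). STS, the sulfatase that frees steroid precursors, was at 56.7 and 23.8 CPM, and the lipoprotein receptor SCARB1 at 1.93 and 0.879 CPM. NR5A2, a nuclear receptor, was lower in late cells, at 0.391 against 3.62 CPM. CYP17A1, which makes the androgens that aromatase uses and was picked out after its values were seen, had 17 reads in all late cells and 54 in all early cells.

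The fusion list had 24 genes compared, of which 11 were at least 2-fold higher in late cells and 0 lower, beside 12.4% and 9.07% of all genes, with a median log2 ratio of 0.61. The transcription factors among them were OVOL1 (230.8 against 22.1 CPM), MSX2 (743 against 155.6), DLX5 (89.5 against 5.16), PPARG (272 against 83.3), its partner RXRA (26.8 against 6.85), TFAP2A (43.3 against 11.8) and GATA2 (394 against 194.2). The envelope genes ERVMER34-1 (75.1 against 13.6 CPM) and ERVV-1 (2.05 against 0.198) were higher too. MFSD2A, the receptor of syncytin-2, was at 0.727 and 0.352 CPM and on in 2 late cells, and BACE2 was below 1 CPM. GATA3, TEAD4 and SLC1A5, the receptor of syncytin-1, did not pass 2-fold, at 720, 142.4 and 50.6 CPM in late cells and 655, 147.98 and 69.4 CPM in early cells. ERVW-1, the gene of syncytin-1, was not matched by symbol.

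**Figure D5:**
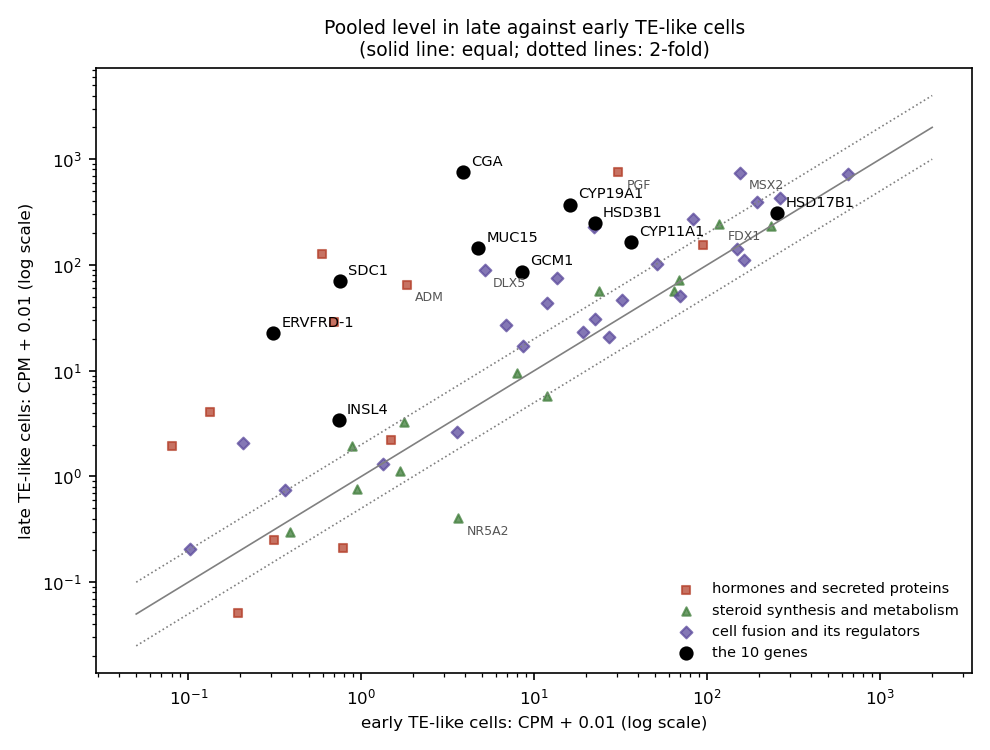
Pooled CPM (plus 0.01, log scales) in 60 late TE-like cells on the y axis against 51 early TE-like cells on the x axis, for the 10 genes (black) and the compared genes of the 3 lists. All 10 black points but HSD17B1 lie above the upper dotted line of 2-fold, and the steroid genes crowd around the line of equal level.

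Over the 60 late cells, 8707 genes were ranked by Spearman's rho with the number of the 10 genes on. The 10 highest were PGF (0.86), BHLHE40 and FST (both 0.84), GLDN and the unnamed ENSPTRG00000052032 (both 0.82), RILPL2 (0.81), MSX2 (0.80), PDLIM2 (0.79), PHKG2 (0.78) and PAPOLA (0.77). They were chosen for this likeness, so their levels are a description. BHLHE40, a transcriptional repressor, had a median of 104.7 CPM in the 22 late cells with 7 or more genes on and of 0 in the 13 with 3 or fewer. PGF had medians of 1365 and 1.85 CPM in these sets, and FST, the activin antagonist follistatin, 132.9 and 0 CPM. The sets had medians of 4821123.5 and 3415325 reads and of 11555.5 and 10335 detected genes. GLDN lies next to CYP19A1 in the RefSeq annotation, and its pooled levels were 27.7 CPM in late and 0.180 CPM in early cells.

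Markers of extravillous trophoblast and of amnion differed from gene to gene in the late cells. Of 8 extravillous trophoblast markers, late cells had a median of 1 on and at most 5, with HLA-G, a defining marker, on in 0 cells at 0.668 CPM pooled. NOTUM was on in 27 late cells, ITGA5 in 18, ITGA1 in 9, FN1 in 8, MMP15 in 6, and MMP2 and ASCL2 in 1 each. In the 22 late cells with 7 or more of the 10 genes on, NOTUM was on in 16 and ITGA1 in 8, beside 4 and 0 of the 13 with 3 or fewer. In the same sets ITGA5 was on in 6 and 2 cells, MMP15 in 5 and 0, and FN1 in 2 and 2. HLA-G, MMP2 and ASCL2 were on in 0 cells of either set. VTCN1, an amnion marker, went the other way, on in 9 of the 22 and 11 of the 13, and BAMBI was on in 8 and 7. Of 6 amnion markers the median was 1 in late and in early cells. VTCN1 was on in 37 and 30 cells and BAMBI in 25 and 22, while GABRP and HEY1 were on in 1 late cell each. The summed medians of the extravillous trophoblast and the amnion markers were 28.8 and 42.01 CPM in late and 15.1 and 39.9 CPM in early cells. In the 22 late cells with 7 or more genes on, they were 53.1 and 28.8 CPM, and in the 13 with 3 or fewer 15.7 and 61.8 CPM. The part of such cells in the values of the 10 genes was not tested.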

How the data were processed

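The authors deposited read counts per Ensembl chimpanzee gene, without normalization, for 217 cells sequenced by SMART-seq2. According to the study's methods reads were trimmed with FastP, aligned to a chimpanzee genome and counted with STAR. The submitters' processing notes list Trim Galore 0.6.6, STAR 2.7.7a and the human build GRCh38 with no role, and since the identifiers are those of chimpanzee genes, the notes and the file differ. Symbols came from a table covering 18783 of 33729 identifiers, and no lengths or sequences were used. RefSeq annotation of another chimpanzee assembly gave neighbouring genes only.

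Cells with fewer than 4000 reads or 8000 detected genes were left out, and 193 were kept, more than the study states for the same thresholds, for a reason not known here. Scanpy 1.11.5 normalized totals, took log1p values, and computed 50 components and 30 neighbours without 79 listed genes. Leiden clustering (leidenalg 0.10.2) used resolution 1 and seed 0. Classes came from marker lists and CCR7. Ratios of pooled CPM put at least 3 reads in the lower class, and genes with reads in fewer than 20 cells were not compared. Scripts were tested on simulated data. Python 3.11.15, pandas 2.3.3 and scipy 1.17.1 were used.

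The 10 genes, the lists and the rule for named genes (the 10 genes, list genes on in at least 20% of late cells or past 2-fold, and the 10 genes most like them) were chosen with earlier results of these data known. The alternatives covered filters, limits, class definitions, thinning and summaries of CPM. One gene of the steroid list is counted but not reported here. All cells form 1 sample, so no p-value was computed.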

Additional observations from a re-analysis of the deposited data

Results flagged for a closer look

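Among the 24 cells left out by the filter on detected genes, 7 of the 10 genes were on, with at least 3 reads, in more cells than the 12.5% that 3 cells would make, the limit used for a count of 0. CYP19A1 and MUC15 were at 12.5%. This limit is no background rate, and the share of all genes past it was not computed. Nothing particular to the 10 genes is therefore read from the count. HSD17B1 was on in 62.5% of them, CYP11A1 in 29.2%, GCM1 and SDC1 in 25% each, CGA in 20.8%, and HSD3B1 and ERVFRD-1 in 16.7% each. These cells had a median of 1660767 reads and 6893.5 detected genes, were given no class in the main comparisons, and some of them entered the alternative with 7000 detected genes. ERVFRD-1 was on in 4 of these 24 cells (exact 95% interval 4.74% to 37.4%).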

How the results depend on the processing

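Under other filters on cells, CCR7 limits of 5 and 20 CPM, thinning, other Leiden resolutions, clustering with the listed genes, and without cells of mixed markers, the share of late and of early cells with at least 3 genes on stayed within its main 95% interval. The level called on mattered more. At 50 CPM the late share was 80%, the early share 11.8% and the late median 3 genes. The early share was 80.4% at 1 CPM and 86.3% at 1 read. Asking for at least 2 genes gave 84.3% of early cells, and for at least 5 genes 63.3% of late cells. Late cells of their main cluster alone, an alternative chosen after seeing the data, gave 100%. The number of the 10 genes higher in late cells ranged from 7 to 9, and the genes lost, each in at least 1 setting, were INSL4, SDC1 (7000 detected genes per cell) and ERVFRD-1 (median over cells). Per gene, 200 of 240 shares and 29 of 40 CPM values stayed within the main interval or within 1.5 times, and 39 of the 40 shares that did not were those at another level for on. At 50 CPM INSL4 was on in 1 late (1.67%) and 1 early cell (1.96%), so its late share was no longer the higher one. No paired analysis between conditions was possible because all cells form 1 group in 1 condition. Leaving out a replicate was likewise not possible. Totals of 1679888 reads or more put 1 read below 0.6 CPM in every cell used, so reads under 10 CPM were detectable, but transcripts lost before sequencing were not.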
